A study of Mus musculus with 40 samples.

Results

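The question here is whether α-amanitin changed transcript levels of 2-cell mouse embryos to the same extent when the embryo came from somatic cell nuclear transfer (SCNT) as when it came from fertilization. It rests on 16 of the 39 arrays with values, chosen by their labels and not by any measured level. They form 4 groups of 4 arrays: SCNT embryos with amanitin, SCNT embryos without it, fertilized embryos with amanitin and fertilized embryos without it. All embryos were B6D2 2-cell embryos, and all arrays were hybridized with biotin-labelled material from poly(A) RNA. The SCNT embryos received nuclei of cumulus cells of B6D2 females and grew in MEMα medium, as far as their labels go. The labels spell out amanitin for all 4 treated SCNT samples. For the treated fertilized samples it is read from a letter A in the sample name and from the series' own outline. No medium is given for the 2-cell fertilized embryos (KSOM is named for 1 fertilized 1-cell sample), so medium and origin cannot be told apart. Dose, duration, embryos per array and whether replicates were separate cultures are not given in the sources used here, so each p-value measures only the spread between these samples.

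α-Amanitin is a mushroom toxin that binds RNA polymerase II and stalls it, so an embryo kept in it has to draw mostly on RNA already present in the egg. In the mouse the major wave of embryonic transcription falls in the 2-cell stage, while maternal transcripts are being degraded. In SCNT the egg's own chromosomes are removed and a somatic nucleus is put in their place, so the cytoplasm with its stored RNA comes from the egg and the transcribing genome from a differentiated cell.

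The measure reported for each gene is the interaction on the log2 scale, that is, the amanitin effect in SCNT embryos (treated minus untreated) minus the amanitin effect in fertilized embryos. A negative value means that the gene fell further, or rose less, under amanitin in SCNT embryos than in fertilized embryos. A gene is called where limma's adjusted p is under 0.05, and gene levels are normalized log2 intensities unless stated otherwise. The array compares relative amounts only, and in whole embryos a transcript with fewer copies per cell cannot be told apart from fewer cells that carry it.

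Replicates were close within each group. Pearson's r between replicate arrays, across genes, was 0.9397 to 0.9474 in SCNT embryos with amanitin, 0.9669 to 0.9735 in SCNT embryos, 0.9569 to 0.9655 in fertilized embryos with amanitin and 0.9686 to 0.972 in fertilized embryos. In a principal component analysis of the 16 arrays the first component held 71.1% of the variance and separated treated from untreated arrays. The second held 9.29% and set the treated arrays of the 2 origins apart, while the untreated arrays of both origins lay between them. The third held 5.69% and separated the untreated arrays by origin. The control transcripts, read as log2 intensities before normalization between arrays, also differed by group. The poly(A) spike-ins averaged 10.49 ± 0.23 in SCNT embryos with amanitin and 8.74 ± 0.45 in SCNT embryos, against 7.61 ± 0.21 in fertilized embryos with amanitin and 7.69 ± 0.62 in fertilized embryos (SD, n = 4 each). Their interaction was 1.82, with an exact 2-sided permutation p of 0.0286 for the amanitin effect in SCNT embryos, the smallest that 4 against 4 arrays allow, and 0.857 in fertilized embryos. The hybridization controls had an interaction of 0.83. The 3′ probe set of 18S rRNA averaged 13.49 with amanitin and 10.14 without it in SCNT embryos. In fertilized embryos it averaged 13.13 and 9.50 (permutation p of 0.0286 in each origin, interaction -0.27). The middle 18S probe set had an interaction of -0.95, and the 5′ probe sets of Actb and Gapdh had -1.22 and -0.20. The 3′ to 5′ difference of Actb had one of -0.11. Its permutation p for the amanitin effect was 0.0286 in SCNT and 0.314 in fertilized embryos. The part of these differences in the results below was not tested.

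The amanitin effect differed between the origins for 5807 of 14916 genes tested, which is 38.9%. It was more negative in SCNT embryos for 3150 genes (21.1% of those tested) and more positive for 2657 (17.8%). The negative side reached further. At least 2-fold differences were found for 2267 genes below 0 and 1463 above, at least 4-fold for 651 and 195, and at least 8-fold for 175 and 22. For 4676 genes the call and its sign held whichever of the 16 arrays was left out. Within each origin amanitin changed most genes, 10327 (69.2%) in SCNT embryos and 9596 (64.3%) in fertilized embryos.

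**Figure D1:**
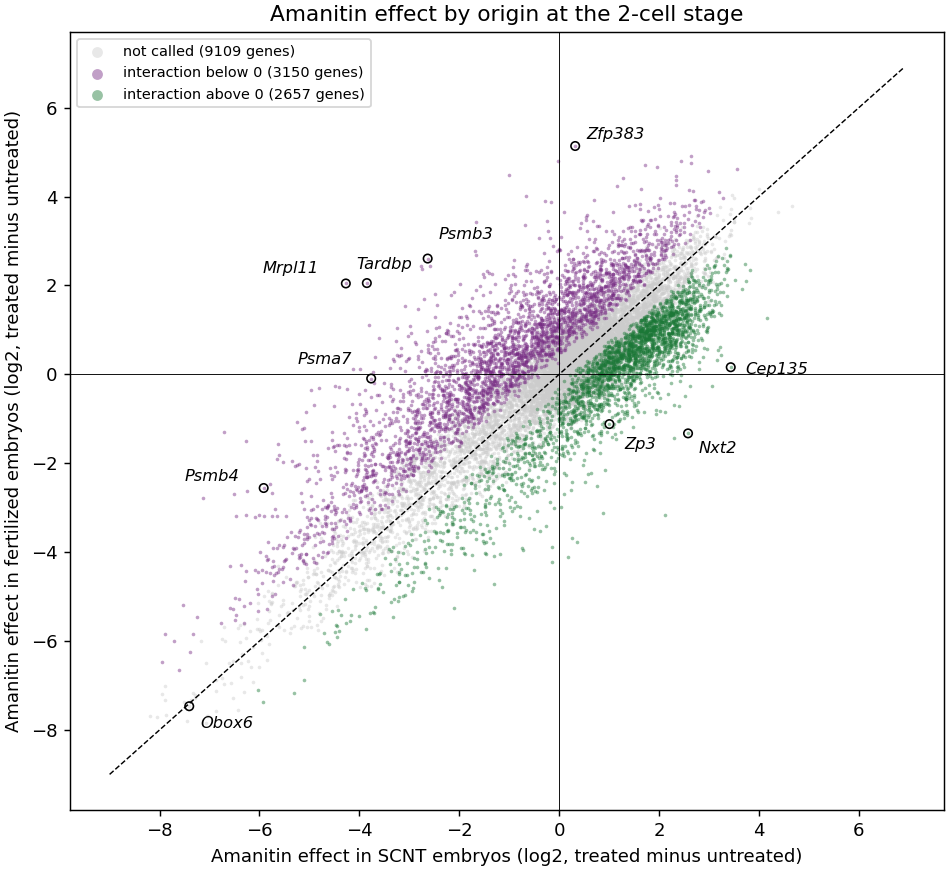
Amanitin effect in SCNT embryos (horizontal axis) against that in fertilized embryos (vertical axis), both in log2 units, with 1 point per gene and a dashed line where both are equal. Purple points are the 3150 genes with an interaction below 0, green points the 2657 with one above 0, and Tardbp, Psmb3 and Mrpl11 lie far into the quadrant where amanitin lowered a transcript in SCNT embryos and raised it in fertilized embryos.

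Among the 3150 genes with a negative interaction, 964 (30.6%) fell under amanitin in both origins and fell further in SCNT embryos, with median effects of -3.13 in SCNT embryos and -1.6 in fertilized embryos. A further 559 fell in SCNT embryos with no called change in fertilized embryos. In 704 genes amanitin raised the transcript in both origins, by less in SCNT embryos. Another 501 rose in fertilized embryos and had no called effect in SCNT embryos. For 405 genes (12.9%) the effects were opposite, with medians of -1.03 in SCNT embryos and 0.89 in fertilized embryos. Of the 2657 genes with a positive interaction, 1257 (47.3%) rose in both origins and rose more in SCNT embryos, at medians of 2.00 and 0.97, and 571 rose in SCNT embryos with no called effect in fertilized embryos. In 163 genes (6.13%) amanitin raised the transcript in SCNT embryos and lowered it in fertilized embryos. Counting only genes whose treated and untreated arrays do not overlap in either origin, 279 (1.87% of all tested) fell in SCNT and rose in fertilized embryos, and 116 (0.778%) did the opposite.

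The 4 group levels of these genes follow in part from their choice by the interaction, which was computed from the same arrays. Genes with a negative interaction had median levels of 6.83 in SCNT embryos with amanitin, 8.18 in SCNT embryos, 7.93 in fertilized embryos with amanitin and 7.67 in fertilized embryos. Their medians in the matching 1-cell groups lay between 8.14 and 8.23. The lowest median was thus that of treated SCNT embryos, a group whose low level helps to make an interaction negative. Genes with a positive interaction had medians of 8.94, 7.65, 8.17 and 8.13 in the same order, against 7.90 to 8.06 at the 1-cell stage. With amanitin, SCNT and fertilized embryos differed for 6445 genes (43.2%), 3670 lower and 2775 higher in SCNT embryos. Without it they differed for 4559 (30.6%), 2426 lower and 2133 higher. Centring arrays on their medians in place of quantile normalization moved these splits to 4145 lower and 2008 higher with amanitin, and to 2887 lower and 1637 higher without it. Of the genes with a negative interaction, 1388 (44.1%) were lower in SCNT embryos with amanitin only, 606 (19.2%) were higher in SCNT embryos without amanitin only, and 675 (21.4%) were both. Of those with a positive interaction, 1182 (44.5%) were higher in SCNT embryos with amanitin only, 600 (22.6%) were lower without it only, and 503 (18.9%) were both. Part of the signal was near the bottom of the scale. In 466 genes with a negative interaction the treated SCNT mean alone of the treated groups lay under the overall median of 5.34, while 2214 (70.3%) had all 4 means above it.

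Tardbp, which encodes the splicing regulator TDP-43, had a large opposite effect. Its levels were 7.08, 6.92, 6.89 and 7.02 in SCNT embryos with amanitin and 10.53, 10.85, 11.09 and 10.84 in SCNT embryos. In fertilized embryos they were 11.62, 11.61, 11.62 and 11.38 with amanitin, against 9.40, 9.74, 9.42 and 9.46 without it. The treated SCNT arrays were thus the lowest of all and the treated fertilized arrays the highest, with no overlap between any of the 4 groups. Amanitin shifted it by -3.85 in SCNT embryos and by 2.05 in fertilized embryos, an interaction of -5.90 (SE 0.18, adjusted p = 1.557e-25), and in the 1-cell groups its means were 11.44 to 11.65. Of its 5 probe sets 4 had the same sign, and the range over them was -5.90 to 0.01.

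Psmb3, the β3 subunit of the 20S proteasome, had the same shape. Its levels were 6.80, 6.79, 6.80 and 6.43 in SCNT embryos with amanitin and 9.27, 9.67, 9.32 and 9.09 in SCNT embryos. They were 10.05, 9.98, 9.79 and 9.70 in fertilized embryos with amanitin and 7.32, 7.20, 7.23 and 7.35 in fertilized embryos. Both untreated groups lay between the treated ones, with untreated SCNT above untreated fertilized embryos. The interaction was -5.24 (SE 0.24, adjusted p = 2.453e-20), and both of its probe sets had this sign. Lsm3, part of the ring of LSm proteins on U6 small nuclear RNA, read 9.09, 8.81, 8.95 and 8.97 in SCNT embryos with amanitin, against 10.85, 10.75, 10.42 and 10.54 in SCNT embryos. In fertilized embryos it read 10.76, 11.08, 11.14 and 11.01 with amanitin, against 8.30, 8.17, 8.24 and 8.21 without it. Here untreated fertilized embryos were the lowest group, and the interaction was -4.45 (SE 0.15, adjusted p = 6.091e-24).

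**Figure D2:**
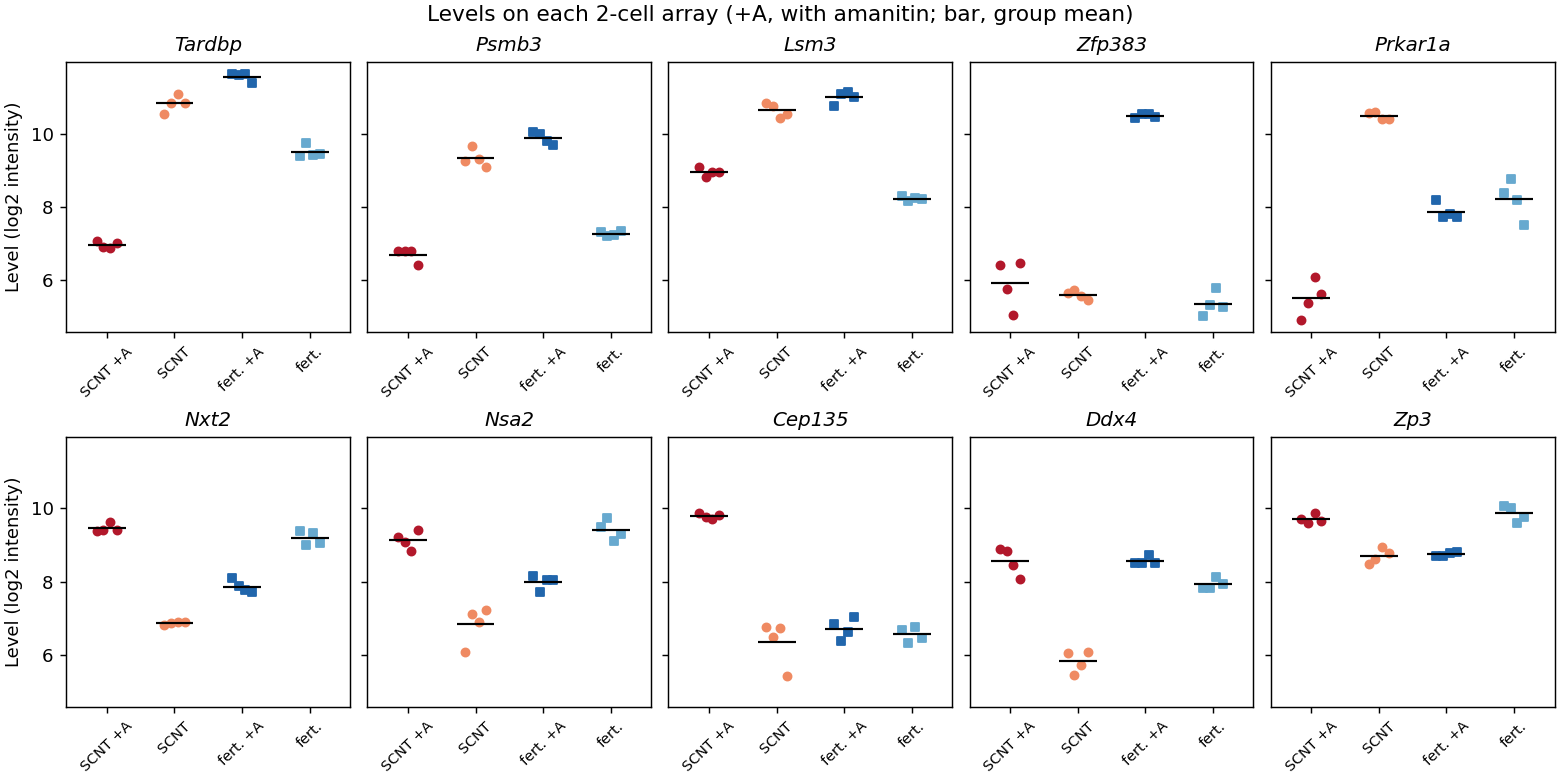
Level of 10 genes on each of the 16 arrays, as log2 intensity on the vertical axis, with the 4 groups side by side and black bars at the group means. In the upper row treated SCNT arrays are low against treated fertilized arrays in each gene shown. In the lower row Nxt2 and Nsa2 have untreated SCNT embryos lowest, and Cep135 is high in treated SCNT embryos only.

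Other strongly negative genes reached that value by other routes. Zfp383, a zinc-finger protein gene, had 6.43, 5.78, 5.06 and 6.48 in SCNT embryos with amanitin and 5.66, 5.75, 5.57 and 5.48 in SCNT embryos. In fertilized embryos it had 10.44, 10.54, 10.53 and 10.47 with amanitin and 5.04, 5.32, 5.79 and 5.28 without it. Only the treated fertilized embryos were high, and the interaction was -4.82 (SE 0.28, adjusted p = 1.003e-16), from its only probe set. Prkar1a, a regulatory subunit of protein kinase A, was low in treated SCNT embryos in place of that. It had 4.93, 5.38, 6.09 and 5.64 in SCNT embryos with amanitin and 10.57, 10.58, 10.39 and 10.40 in SCNT embryos, against 8.20, 7.72, 7.82 and 7.74 in fertilized embryos with amanitin and 8.38, 8.78, 8.20 and 7.52 in fertilized embryos. Its interaction was -4.62 (SE 0.30, adjusted p = 1.597e-15), with an effect of -4.97 in SCNT and -0.35 in fertilized embryos. All 3 of its probe sets were negative, but they ran from -4.62 to -0.51, so the size depends on the probe set. Hadh, a dehydrogenase of mitochondrial fatty acid oxidation, had effects of -2.76 in SCNT and 2.44 in fertilized embryos, and the 4 treated SCNT arrays spread from 4.27 to 6.96. Mrpl11, a protein of the mitochondrial ribosome, had the most negative interaction of the genes the text names, -6.31 (SE 0.39). Its treated SCNT arrays were at 3.59, 3.81, 3.79 and 5.45, 3 of them well under the overall median, so that low end is uncertain, while untreated SCNT arrays had 8.39, 8.65, 8.21 and 8.47. Treated fertilized arrays had 7.86, 8.02, 7.87 and 7.65, against 4.80, 5.98, 6.37 and 6.07 in untreated fertilized arrays.

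Positive interactions among genes above the overall median in every group were smaller. Nxt2, a relative of the mRNA export cofactor Nxt1, had 9.38, 9.40, 9.63 and 9.41 in SCNT embryos with amanitin and 6.81, 6.87, 6.89 and 6.91 in SCNT embryos. In fertilized embryos it had 8.09, 7.87, 7.78 and 7.72 with amanitin and 9.38, 9.01, 9.33 and 9.05 without it. Untreated SCNT embryos were the lowest group, and the interaction was 3.91 (SE 0.23, adjusted p = 1.488e-16). Nsa2, a ribosome assembly factor, was alike, with 9.21, 9.09, 8.84 and 9.42 in SCNT embryos with amanitin, 6.09, 7.13, 6.91 and 7.22 in SCNT embryos, 8.15, 7.72, 8.04 and 8.05 in fertilized embryos with amanitin and 9.50, 9.73, 9.11 and 9.30 in fertilized embryos. Its interaction was 3.73 (SE 0.25, adjusted p = 2.753e-15), with both of its probe sets on that side. Cep135, a protein of centriole assembly, was high in treated SCNT embryos alone. It had 9.86, 9.77, 9.72 and 9.81 there and 6.77, 6.48, 6.73 and 5.44 in SCNT embryos, against 6.84, 6.39, 6.63 and 7.03 in fertilized embryos with amanitin and 6.69, 6.32, 6.77 and 6.47 in fertilized embryos. The interaction was 3.27 (SE 0.30, adjusted p = 1.032e-11). Cep43, another centrosomal protein, reached 3.27 (SE 0.38) mostly through a fall of 2.52 in fertilized embryos, beside a rise of 0.75 in SCNT embryos. Its treated fertilized arrays spread from 4.44 to 6.33, the lowest under the overall median, so that low end is uncertain. The T-box factor Tbx3 (2.93, SE 0.32) likewise fell by 2.43 in fertilized embryos and rose by 0.51 in SCNT embryos. Its untreated fertilized arrays had 8.51, 8.22, 8.94 and 8.86, while its other 3 group means lay between 5.66 and 6.21.

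Among the gene lists, the 20S core of the proteasome, the barrel of α and β subunits that degrades ubiquitin-tagged proteins, had the most negative median. All 14 of its 14 measured subunits had a called negative interaction, with a median of -1.72, where 21.1% of all genes did and the median of all genes was -0.00. Amanitin lowered all 14 in SCNT embryos (median -3.74), as it did 29.7% of all genes. In fertilized embryos it lowered 10 and raised 3 (median -2.06), where 25.8% of all genes fell and 38.6% rose. With amanitin 12 of the 14 were lower in SCNT than in fertilized embryos and none higher, against 24.6% lower of all genes. Without amanitin 11 were higher and none lower, against 14.3% higher of all genes. The 7 α subunits had a median interaction of -1.68 and the 7 β subunits one of -1.83. Psma7, the α4 subunit, read 6.71, 6.42, 6.19 and 6.15 in SCNT embryos with amanitin, 10.10, 10.23, 10.03 and 10.16 in SCNT embryos, 7.05, 6.60, 6.67 and 6.86 in fertilized embryos with amanitin and 6.55, 7.38, 6.68 and 6.95 in fertilized embryos. For this subunit untreated SCNT embryos were the group apart, and the interaction was -3.67 (SE 0.26, adjusted p = 2.339e-14). The smallest in size was Psma3, at -0.63 (SE 0.21, adjusted p = 0.0139), with a fall of 4.74 in SCNT embryos and of 4.11 in fertilized embryos. The 19S regulator, which recognises and unfolds substrates, had 14 of 17 subunits called negative and none positive, all 6 of its ATPases among them. Proteasome assembly factors and activators were called negative in 10 of 12, with a median of -1.33. In that list Psmd9, an assembly chaperone, had effects of -0.59 in SCNT and 2.27 in fertilized embryos, with 1 of its 2 probe sets on that side of the interaction. Psme4, the PA200 activator, was not called (0.29, SE 0.15, adjusted p = 0.1411). It was called positive on the values as deposited (lowest adjusted p = 0.000928), with median centring and without fertilized array 2, and its 5 probe sets ran from -1.01 to 1.05.

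**Figure D3:**
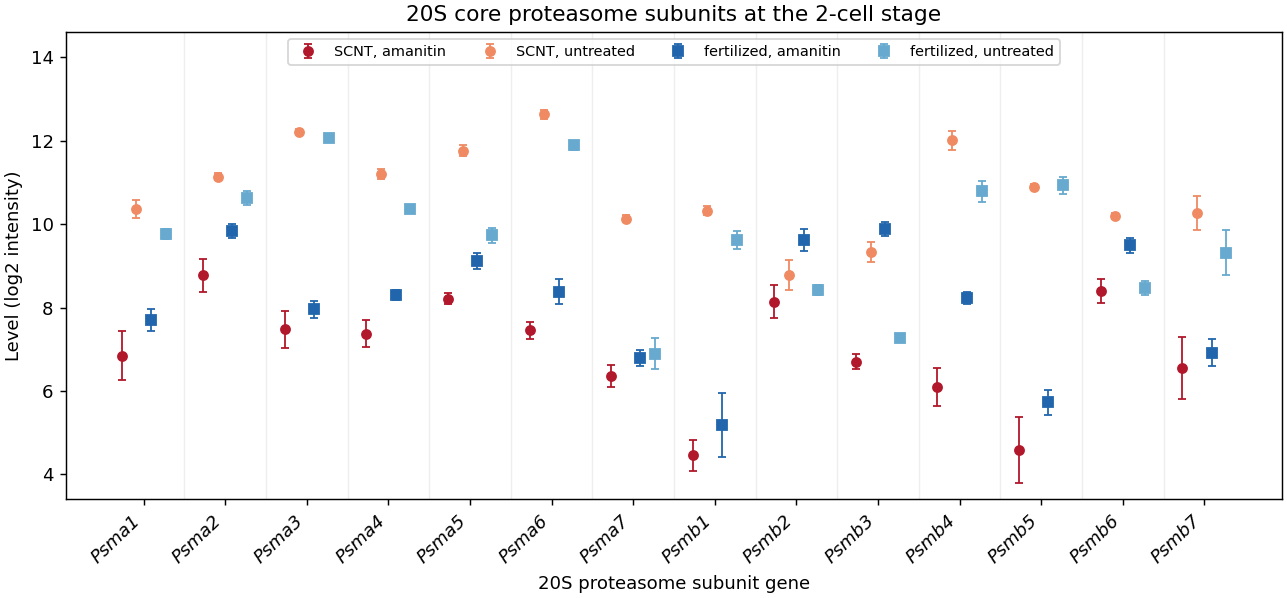
Mean level (log2 intensity, points) with SD over 4 arrays (bars) for each of the 14 genes of the 20S proteasome core in the 4 groups at the 2-cell stage. Treated SCNT embryos have the lowest mean for each of the 14 genes, and untreated SCNT embryos are above untreated fertilized embryos for 13 of them.

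Psmb3 and Mrpl11, a proteasome and a mitochondrial ribosome gene of opposite effects, are shown with the 150 bases before their annotated starts (RefSeq, GRCm38.p6, read on the gene's strand, plus for both). Capitals mark the letters of the CCAAT box, CCAAT or its reverse complement ATTGG. They lie at chr11:97703284-97703433 for Psmb3 and chr19:4962156-4962305 for Mrpl11.
Psmb3: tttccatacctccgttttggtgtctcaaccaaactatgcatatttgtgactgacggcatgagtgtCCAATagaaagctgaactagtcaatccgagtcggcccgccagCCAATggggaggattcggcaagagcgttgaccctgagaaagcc
Mrpl11: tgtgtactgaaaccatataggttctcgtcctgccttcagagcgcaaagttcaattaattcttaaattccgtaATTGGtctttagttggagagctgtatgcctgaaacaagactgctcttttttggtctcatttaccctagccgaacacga
The Psmb3 window holds the box at 85 and 43 bases before the start and the Mrpl11 window at 78 bases before it. Over the 250 bases before the start, on both strands, the box was present in 1171 of 2605 genes with a negative interaction, 834 of 2143 with a positive one (38.9%) and 4782 of all 11959 genes with a promoter in the table. The ETS letters CCGGAAG were in 17.5%, 15.1% and 13.3% of the same sets, and the TATA letters TATAAA in 8.33%, 8.45% and 9.34%. None of these motifs holds another. The shares are matches of letters and were not tested.

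Proteins of the splicing machinery formed the second list. Of 18 Sm, snRNP and LSm proteins, 13 had a called negative interaction and 1 a positive one (median -1.62). Of all genes 21.1% were called negative and 17.8% positive. Amanitin lowered 14 of the 18 in SCNT embryos (median -1.75), as it did 29.7% of all genes. It raised 11 in fertilized embryos (median 0.54), as it did 38.6% of all genes. Snrpd3, a protein of the Sm ring, had 7.93, 8.36, 7.92 and 7.44 in SCNT embryos with amanitin, 10.66, 10.98, 10.69 and 10.63 in SCNT embryos, 11.16, 11.24, 11.16 and 10.98 in fertilized embryos with amanitin and 9.60, 9.65, 9.57 and 9.82 in fertilized embryos. Treated and untreated arrays did not overlap in either origin, and the interaction was -4.30 (SE 0.20, adjusted p = 4.471e-20), with 2 of its 3 probe sets on that side. Snrpf (-3.22, SE 0.32) and Snrpe (-2.74, SE 0.16), both of the Sm ring, were negative as well. Lsm11, of the U7 particle that processes histone mRNA, was the positive one (0.66, SE 0.24, adjusted p = 0.02357, a call lost without any one of 3 arrays), and Lsm2 (-0.61, adjusted p = 0.07217) and Snrpa1 (-0.50, adjusted p = 0.1134) were not called.

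Mitochondrial genes encoded in the nucleus followed. Subunits of respiratory complexes II to V were called negative in 31 of 38 and positive in 1 (median -1.60). Those of complex I, which takes electrons from NADH, were negative in 26 of 33 and positive in 1 (median -1.42). Of all genes 21.1% were called negative and 17.8% positive. By complex, 3 of 4 genes of complex II, 7 of 10 of complex III with cytochrome c, 8 of 9 of complex IV and 13 of 15 of complex V were negative. Atp5g3, which encodes the c-ring protein of the ATP synthase, had 8.69, 8.04, 7.15 and 8.68 in SCNT embryos with amanitin and 11.91, 12.23, 11.81 and 12.20 in SCNT embryos. In fertilized embryos it had 9.86 to 10.14 with amanitin and 10.72, 10.91, 11.12 and 10.80 without it, so both origins fell and SCNT embryos fell further, by an interaction of -2.98 (SE 0.25, adjusted p = 1.177e-12). Atp5g1, a second gene for that protein, had -4.33 (SE 0.30) with the treated SCNT mean of 3.86 under the overall median. Ndufa9 of complex I had -2.86 (SE 0.26) and Cox4i1 of complex IV -2.65 (SE 0.32), with falls in both origins. Cox8a, also of complex IV, went the other way (0.46, SE 0.18, adjusted p = 0.03615), as did Ndufv2 of complex I (0.53, SE 0.20, adjusted p = 0.0274), but these calls ended when any one of 8 arrays or of 6 arrays was left out. Mitochondrial ribosomal proteins were called negative in 47 of 73 and positive in 1 (median -1.09). In SCNT embryos amanitin lowered 56 of the 73 and raised 9, where it lowered 29.7% and raised 39.6% of all genes. In fertilized embryos it lowered 41 and raised 26, where it lowered 25.8% and raised 38.6% of all genes. Mrpl18 had effects of -2.40 in SCNT and 0.86 in fertilized embryos (interaction -3.25, SE 0.22, adjusted p = 6.416e-15), and Mrpl19 was the positive one (0.65, SE 0.22, adjusted p = 0.01626), though at -0.29 when its probe sets were averaged.

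The cytosolic chaperonin CCT, which folds actin and tubulin, had 7 of 8 subunits called negative (median -1.12). All 8 fell in SCNT embryos and 7 in fertilized embryos. Of all genes 21.1% were called negative, 29.7% fell in SCNT embryos and 25.8% fell in fertilized embryos. Cct8 read 7.18, 6.89, 7.50 and 6.77 in SCNT embryos with amanitin and 10.77, 10.72, 10.67 and 10.99 in SCNT embryos, against 8.57, 8.74, 8.71 and 8.52 in fertilized embryos with amanitin and 10.28, 10.45, 10.22 and 10.33 in fertilized embryos. SCNT minus fertilized was -1.55 with amanitin and 0.47 without it (interaction -2.02, SE 0.18, adjusted p = 8e-12). Tcp1, the α subunit, fell by 3.53 in SCNT embryos and by 3.44 in fertilized embryos and was not called (-0.09, SE 0.16, adjusted p = 0.7285). Over all 37 lists with at least 8 measured members, 33 had a median interaction below 0 and 33 had more negative than positive calls, so a negative median was usual for the lists chosen.

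**Figure D4:**
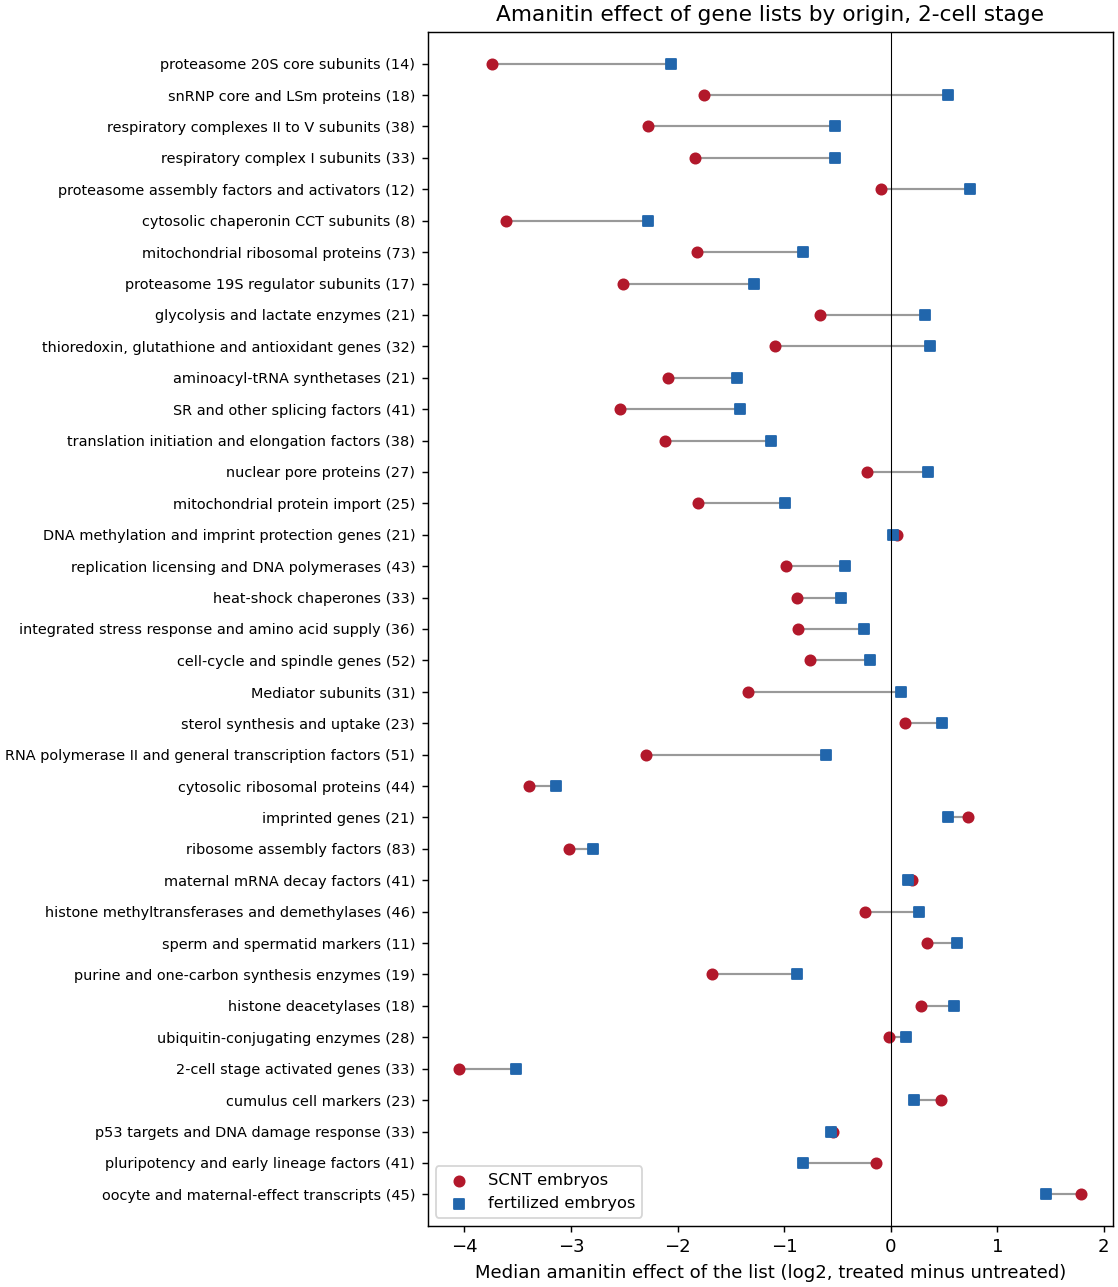
Median amanitin effect (log2, treated minus untreated) of each gene list with at least 8 measured genes, in SCNT embryos (circles) and fertilized embryos (squares), with the number of measured genes in brackets and the lists ordered by median interaction. The 20S proteasome list lies at -3.74 in SCNT and -2.06 in fertilized embryos, the snRNP and LSm list at -1.75 and 0.54, and the oocyte list at 1.79 and 1.46.

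Transcripts of the oocyte rose under amanitin in both origins, but not evenly. In SCNT embryos 42 of 45 rose, as did 39.6% of all genes there. In fertilized embryos 36 rose, as did 38.6% of all genes there. The interaction of the oocyte transcripts was called negative for 16, positive for 18 and not called for 11, with a median of 0.12. Of all genes 21.1% were negative and 17.8% positive. The genes of the zona pellucida, the egg coat, were all 3 positive, Zp3 at 2.13, Zp1 at 1.39 and Zp2 at 0.65. Zp3 had 9.70, 9.61, 9.87 and 9.66 in SCNT embryos with amanitin and 8.49, 8.63, 8.95 and 8.77 in SCNT embryos. It had 8.71, 8.69, 8.77 and 8.82 in fertilized embryos with amanitin and 10.07, 10.02, 9.61 and 9.77 in fertilized embryos, so the treated embryos were the higher in SCNT and the lower in fertilized embryos. Of the subcortical maternal complex, a protein assembly that early cleavage requires, Khdc3, Tle6, Padi6 and Nlrp5 were positive (0.72 to 1.22) and Ooep was negative (-1.12). The germ-cell helicase gene Ddx4 had 8.89, 8.83, 8.46 and 8.06 in SCNT embryos with amanitin and 6.05, 5.46, 5.72 and 6.09 in SCNT embryos, against 8.51, 8.51, 8.72 and 8.52 in fertilized embryos with amanitin and 7.82, 7.83, 8.14 and 7.94 in fertilized embryos. The treated origins overlapped and the untreated ones did not (interaction 2.10, SE 0.23, adjusted p = 7.781e-10). Nobox, a transcription factor of the oocyte, was negative (-2.37, SE 0.40), with a rise of 2.43 in SCNT embryos and of 4.81 in fertilized embryos. Its untreated fertilized mean of 4.21 was under the overall median. Rfpl4 likewise rose by 2.02 in SCNT embryos and by 3.57 in fertilized embryos. The growth factor genes Bmp15 (-1.15) and Gdf9 (-0.29, adjusted p = 0.04172) were on the same side, the call of Gdf9 ending without any one of 9 arrays.

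Of 41 factors of maternal mRNA decay 15 were negative (36.6%), 10 positive (24.4%) and 16 not called, against 21.1% and 17.8% of all genes (median -0.22). Of 10 CCR4-NOT subunits, the main deadenylase, 3 were negative and 4 positive. Cnot3 had 8.47, 8.37, 8.64 and 8.10 in SCNT embryos with amanitin and 7.81, 7.76, 8.70 and 8.38 in SCNT embryos, which overlap, against 10.15, 9.80, 10.12 and 10.15 in fertilized embryos with amanitin and 7.74, 7.67, 7.06 and 7.60 in fertilized embryos, which do not (interaction -2.30, SE 0.25, adjusted p = 1.009e-09). Zfp36l2, which binds AU-rich elements, fell by 1.94 in SCNT embryos and had an effect of 0.57 in fertilized embryos (interaction -2.51, SE 0.34). Dcp2, the decapping enzyme, was positive (1.35, SE 0.24), as was Tut7, a terminal uridylyltransferase (1.18, SE 0.20). Btg4, the adaptor that brings CCR4-NOT to maternal mRNA, averaged 12.86 in SCNT embryos with amanitin, 11.65 in SCNT embryos, 13.42 in fertilized embryos with amanitin and 11.75 in fertilized embryos. Its interaction of -0.46 (SE 0.11, adjusted p = 0.0008502) was small beside its rise in both origins, and it was 0.03 on the values as deposited.

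Genes known for activation at the 2-cell stage fell in both origins, 26 of 33 in each, where 29.7% of all genes fell in SCNT embryos and 25.8% in fertilized embryos. Their interaction was negative for 7 (21.2%), positive for 5 (15.2%) and not called for 21 (median -0.03), which is near the 21.1% and 17.8% of all genes. Zfp352, a classical marker of that activation, averaged 7.0 in SCNT embryos with amanitin, 11.22 in SCNT embryos, 6.81 in fertilized embryos with amanitin and 11.43 in fertilized embryos, and its interaction was 0.40 (SE 0.36, adjusted p = 0.4138). Obox6, another such gene, averaged 4.38, 11.78, 4.39 and 11.86 in the same order (interaction 0.06, adjusted p = 0.9261). Tcstv1 had the interaction of largest size in the list. It had 5.63, 6.10, 5.51 and 5.70 in SCNT embryos with amanitin and 8.45, 8.35, 7.93 and 8.52 in SCNT embryos, against 9.40, 9.36, 9.78 and 9.26 in fertilized embryos with amanitin and 8.92, 9.30, 9.13 and 8.56 in fertilized embryos. It fell by 2.58 in SCNT embryos and rose by 0.47 in fertilized embryos, an interaction of -3.05 (SE 0.25, adjusted p = 9.459e-13). On its only probe set the 1-cell means were already 7.98 to 8.68. The untreated 2-cell means were 8.31 in SCNT and 8.98 in fertilized embryos. Btbd18 was low with amanitin in both origins, 4.11 in SCNT and 4.04 in fertilized embryos, so its interaction of 1.45 (SE 0.48, adjusted p = 0.01313) lay in the untreated embryos, 10.03 in SCNT and 11.41 in fertilized embryos. Both treated means were under the overall median, and the call ended with the smaller constant (adjusted p = 0.0763) and without treated SCNT array 1 (1.04, adjusted p = 0.0574). Polr2a, the gene of the amanitin-binding subunit of RNA polymerase II, had 3.70, 5.55, 5.16 and 5.40 in SCNT embryos with amanitin and 8.01, 8.24, 7.85 and 7.65 in SCNT embryos, against 7.87, 7.65, 7.39 and 7.60 in fertilized embryos with amanitin and 8.08, 7.80, 7.85 and 7.80 in fertilized embryos. The treated SCNT arrays were far under the other 12, on a single probe set (interaction -2.73, SE 0.36, adjusted p = 4.729e-08). The treated SCNT mean of 4.95 was under the overall median, so that low end is uncertain.

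In the p53 and DNA damage list 8 genes were negative (24.2%), 10 positive (30.3%) and 15 not called of 33, against 21.1% and 17.8% of all genes (median 0.05). Mdm2, the ligase that degrades p53, had 10.88, 10.91, 10.96 and 10.94 in SCNT embryos with amanitin and 10.34, 10.77, 10.58 and 10.31 in SCNT embryos, against 9.99 to 10.16 in fertilized embryos with amanitin and 10.79, 10.75, 10.50 and 10.63 in fertilized embryos. It was the highest in treated SCNT embryos and the lowest in treated fertilized embryos (interaction 1.06, SE 0.17, adjusted p = 3.83e-06). Gadd45g, a stress-response gene, was positive as well (1.91, SE 0.41), with a treated fertilized mean of 4.96, under the overall median. By contrast Btg2 (-2.41, SE 0.25) and Ccng1 (-2.08, SE 0.30), both p53 targets, were negative. Cdkn1a, the p21 gene, was not called (-0.81, SE 0.34, adjusted p = 0.05555). Both of its probe sets were negative (-2.46 and -0.81), and it was called in 7 of 27 other settings, the mean of probe sets among them. The 3 probe sets of Ccng1 ran from -2.08 to 1.05, and their mean was not called (adjusted p = 0.0978). Of 41 pluripotency and early lineage genes, 6 were negative and 7 positive (17.1%), neither a larger share than the 21.1% and 17.8% of all genes (median 0.12). Tfap2c, a factor of the trophoblast lineage, had 7.45, 8.67, 7.50 and 7.32 in SCNT embryos with amanitin and 5.50, 6.50, 7.28 and 6.47 in SCNT embryos, against 9.10, 9.18, 8.92 and 9.08 in fertilized embryos with amanitin and 9.93, 10.21, 9.85 and 9.91 in fertilized embryos. It was lower in SCNT than in fertilized embryos under both conditions, with differences of -1.34 with amanitin and -3.53 without it (interaction 2.20, SE 0.32, adjusted p = 5.333e-07). Stat3 was negative (-1.70, SE 0.18), with a rise of 2.00 in fertilized embryos, but its 3 probe sets ran from -1.70 to 1.26 and their mean was not called (adjusted p = 0.0891).

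Cell type markers were read beside these results, with their levels summed on the linear scale. The summed level of the 10 oocyte markers was 17400 to 19300 in SCNT embryos with amanitin, 5510 to 6240 in SCNT embryos, 17500 to 19700 in fertilized embryos with amanitin and 6280 to 6770 in fertilized embryos, so the treated origins overlapped. For the 11 cumulus markers measured the sums were 771 to 908, 470 to 560, 784 to 972 and 386 to 548 in the same order, and 9, 4, 8 and 4 of them had means above the overall median. In the longer cumulus list 3 of 23 genes were negative (13.0%) and 1 positive (4.35%), below the 21.1% and 17.8% of all genes (median -0.00). Among the 2-cell groups Rgs2 (-1.84, SE 0.18) and Cyp11a1 (-1.50, SE 0.30) were highest in treated fertilized embryos. Rgs2 was not particular to embryos made with cumulus nuclei, since its 1-cell means were 12.68 to 12.97, fertilized embryos included. Its 4 probe sets ran from -3.04 to 0.20. Sperm markers were near the bottom of the scale, with sums of 59.5 to 111 in SCNT embryos with amanitin, 50.5 to 126 in SCNT embryos, 89.1 to 240 in fertilized embryos with amanitin and 46.6 to 96.8 in fertilized embryos. Of the 3 measured 2 had a called negative interaction. In the longer sperm list 3 of 11 genes were negative (27.3%) and 1 positive (9.09%), against 21.1% and 17.8% of all genes. The part of any of these cells in the result was not tested.

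At the 1-cell stage the same contrast, read from 15 other arrays, was called for far fewer genes, 359 of 14916 (2.41%), 249 below 0 (1.67%) and 110 above (0.737%). That number and its split moved with the scaling, to 344 below and 346 above on the values as deposited and to 1222 below and 58 above with median centring, and the 2 arrays it depended on most were untreated ones (687 without fertilized array 1, 191 without SCNT array 3). It was 227 without SCNT array 4 and 222 without treated SCNT array 1. The interaction differed between the stages for 4326 genes (29.0%), 2337 of them with a more negative value at the 2-cell stage and 1989 with a more positive one. With median centring that split was 1742 and 2256. Of the genes called at both stages, 219 in all, 70 had the same sign and 149 the opposite one. They make up 3.77% of the 2-cell calls and 61.0% of the 1-cell calls. Of the 14 genes of the 20S core 1 was called below 0 at the 1-cell stage, where 1.67% of all genes were. Psmb3, far apart at the 2-cell stage, had 1-cell means of 8.69 in SCNT embryos with amanitin, 8.83 in SCNT embryos, 8.93 in fertilized embryos with amanitin and 8.80 in fertilized embryos.

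**Figure D5:**
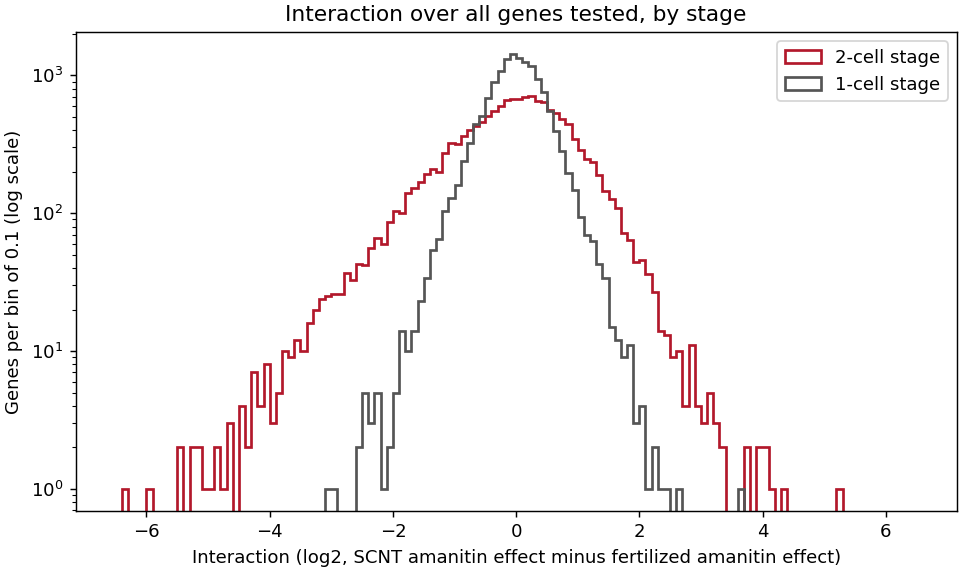
Number of genes (log scale) by interaction in bins of 0.1 log2 units over all 14916 genes tested, at the 2-cell stage (red) and the 1-cell stage (grey). The 2-cell values spread further on both sides, and 175 genes lie below 0 and 22 above it by at least 8-fold among those called.

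The calls were unevenly spread over gene properties. With genes sorted by the length of their span on the genome, the 20% with the shortest spans (up to 7 kb) had 22.9% negative and 9.6% positive calls, and the 20% with the longest (from 67.82 kb) had 15.3% negative and 26.4% positive calls. The median interaction was -0.10 in the first and 0.18 in the second. Sorted by their level in untreated 1-cell fertilized embryos, the lowest 20% had 7.54% negative and 7.71% positive calls and the highest 20% had 39.4% and 28.6%. X-linked genes had 111 negative and 95 positive calls of 479 (23.2% and 19.8%), against 21.1% and 17.7% of autosomal genes. Xist, the RNA that silences an X chromosome, had 7.10, 6.96, 7.85 and 7.04 in SCNT embryos with amanitin and 9.26, 9.21, 8.79 and 8.89 in SCNT embryos, against 7.55, 7.38, 6.92 and 7.72 in fertilized embryos with amanitin and 7.61, 7.79, 7.79 and 8.05 in fertilized embryos. The treated origins overlapped and untreated SCNT embryos were the highest (interaction -1.38, SE 0.26, adjusted p = 2.887e-05). The SCNT nuclei came from females, and the sex of the fertilized embryos is not given here. Sex and origin therefore cannot be told apart for Xist or the X-linked genes.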

How the data were processed

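Gene expression was measured on 1-colour Affymetrix mouse arrays of 45101 probe sets, 64 of them controls. RNA was extracted with a PicoPure kit and is given as poly(A) RNA, per the labels. The values used are the intensities the authors deposited, on a linear scale and 1 per probe set. Software and the scaling method are not given in the sources used here. The mean after trimming 2% at each end was 150 on every one of the 39 arrays, and the column of 1 untreated 1-cell SCNT sample was empty, so it was left out. The table holds no detection calls, so means under the overall median of 5.34 are treated as uncertain, and the number of arrays limits the precision.

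From these values log2(intensity + 6.9) was computed, the constant being the 20th percentile, followed by quantile normalization. A fold change on this scale understates the change of dim genes. Probe sets above the overall median on at least 4 arrays were kept (31153), 25931 of them with a single gene symbol in the platform annotation, and the one of highest mean stands for each of 14916 genes. Of 42 called genes under the naming rule below with several probe sets, 16 had one of the other sign. Of all probe sets 34945 had 1 symbol, 932 several and 9160 none. A model with 1 mean per group was fitted to all 39 arrays with limma 3.58.1 (R 4.3.3), moderated with a trend on 29 residual degrees of freedom, and contrasts were adjusted by Benjamini and Hochberg's method over all genes, with a threshold of 0.05. Tables and permutation tests used Python 3.11.15 with scipy 1.17.1. In a simulation of the 2-cell interaction, 200 of 14916 genes were changed and the rest had none. Changes of 0.5, 1 and 2 log2 units were recovered for 4.545%, 38.57% and 84.38% of the changed genes. Of 88 calls 4.55% were false. With 5807 calls in the real data the adjusted threshold corresponds to a larger unadjusted p, so these shares do not carry over.

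The genes named are the 8 most negative and 8 most positive with all 4 group means above the overall median, the 4 and 4 with opposite effects and no overlap, the 4 and 4 with a mean under the median, up to 4 called members of each list described with up to 2 of the other sign and 2 not called, and a set of well-known genes. Genes of the first 3 kinds had to keep call and sign when any array was left out. The text names part of them. Bmp15, Obox6, Zp1, Zp2, Khdc3, Tle6, Padi6, Nlrp5, Ooep and Psma3 stand outside that rule and were chosen after their values were seen. The members, lists and subgroups were chosen with earlier results of these data known. Alternatives tried were other constants, 2 other filters (none, or mean level only), median centring, the deposited scale without normalization, the mean of probe sets, no trend, array weights, the 16 arrays alone, the replicate number as a block and the omission of single arrays. Gene starts and promoter sequences are those of RefSeq (GRCm38.p6), found for 11959 of the 14916 genes.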

Additional observations from a re-analysis of the deposited data

Results flagged for a closer look

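The amanitin effect itself differed between SCNT and fertilized embryos for 5807 genes by limma's test of that difference, and the difference was not the same at the 2 stages for 4326 genes by the test of the stages against each other. For 56 of the genes named, each of the 4 groups of 4 arrays was looked at. In 16 of 224 groups (7.14%) 1 array stood far from the other 3, and chance alone gives about 1 in 20. Of these 6 were groups of treated SCNT embryos, 1 of untreated SCNT embryos, 7 of treated fertilized embryos and 2 of untreated fertilized embryos. In treated SCNT embryos Psmb3 was low at 6.43 on array 4 and Tcp1 low at 8.49 on array 3, while Nxt2 at 9.63 and Xist at 7.85 were high on array 3, Mrpl11 at 5.45 on array 4 and Tfap2c at 8.67 on array 2. In untreated SCNT embryos Snrpd3 was high at 10.98 on array 2. In treated fertilized embryos Tardbp was low at 11.38 on array 4, Cnot3 at 9.80 on array 2 and Zfp352 at 5.92 on array 1. In that group Psme4 was high at 12.37 on array 4, Ddx4 at 8.72 and Actb at 10.86 on array 3, and Mdm2 at 10.16 on array 1. In untreated fertilized embryos Tardbp was high at 9.74 on array 2 and Polr2a at 8.08 on array 1.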

How the results depend on the processing

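The number of genes with a called 2-cell interaction was 5226 to 6047 over 11 other settings and 5549 to 5802 with 1 of the 16 arrays left out. The opposite effects numbered 330 to 434 (SCNT lower) and 112 to 169 (SCNT higher) over the settings. The 1-cell interaction was the unstable count, with 690 genes on the values as deposited, 1280 with median centring, 184 with the mean of probe sets, 1054 with array weights and 191 to 687 with 1 array left out. Without 2 outlying 1-cell arrays (fertilized array 1 and treated SCNT array 4), a setting chosen after seeing the data, it was 611. The cause was not tested. The interaction reversed for Sdhc (-1.33), Psmg2 (-1.06), Mrpl19 (-0.289) and Cnot7 (-0.171) with the mean of probe sets, where probe sets of different sign are pooled, and for Btg4 (0.029) on the values as deposited. Of 95 called genes under the naming rule, 78 kept call and sign in every setting. Of 56 of the genes in the text, 13 changed a call or sign in at least 1 setting. Gdf9 did so in 15, Cox8a and Ndufv2 in 10, and Cdkn1a and Lsm11 in 7 of 27 settings. These 56 leave out Sdhc, Psmg2 and Cnot7, whose reversal is given above, and the genes outside the naming rule. Single arrays also decided Btbd18 (1.04, adjusted p = 0.0574, without treated SCNT array 1) and Mrpl19 (0.52, adjusted p = 0.0554, without treated SCNT array 4). Samples of the same replicate number shared little deviation (r -0.0487 to 0.0922, with 8 of 24 best matched to their own number). Whether they were prepared together cannot be read from such values, and the main model did not pair them. With a replicate block 5791 genes were called. Dim signals limit the lower end, since no background level is in the values.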
